A study of Mus musculus with 6 samples.

Results

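The genes described here are Srebf1, which encodes the transcription factor SREBP1, and 9 genes of hepatic fatty acid synthesis and its regulation: Acly, Acaca, Acacb, Fasn, Elovl6, Scd1, Me1, Thrsp and Pnpla3. They were found in the array table by symbol, as probe sets that the platform annotation maps to exactly 1 gene. All 10 genes were found, out of 22180 genes measured, and each had 1 probe set.

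RNA came from livers of male C57BL mice at 32 weeks of age. The CR-CD group was born to dams fed a chromium-restricted diet and was moved to the control diet at weaning. The CD-CD group was born to dams on the control diet and stayed on it. Each group had 3 Affymetrix GeneChip Mouse Gene 2.0 ST arrays, numbered as replicates 1 to 3. The sources used here do not say which animals or litters the arrays came from, so the p-values measure only the spread between these arrays. The paper states that mice were sacrificed at the end of the study, with blood drawn after a fast and livers removed. The feeding state of each liver on the arrays was not analysed here.

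SREBP1 is made as a precursor in the endoplasmic reticulum membrane, is escorted by SCAP and held back by the INSIG proteins, and is cut in the Golgi to free a fragment that enters the nucleus and switches on lipogenic genes. Insulin and the oxysterol receptor LXR raise Srebf1 transcription in the liver, and feeding after a fast turns the pathway on. Cytosolic citrate is cleaved to acetyl-CoA, carboxylated to malonyl-CoA, built into palmitate by fatty acid synthase, and then elongated and desaturated, with NADPH as the reductant. ChREBP, a factor that responds to glucose metabolites, acts on many of the same genes.

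The comparison asks whether a chromium-restricted diet of the mother, ended at weaning, left a change in the lipogenic genes of the adult liver. In these arrays none of the 10 genes passed the test, and CR-CD and CD-CD values overlapped for every one of them. Elovl6 had the largest difference, 1.74-fold higher on average in CR-CD livers, with a 95% interval of 0.891 to 3.40-fold. The values of Acly, Scd1, Thrsp and Acacb differed more between the replicate 1 arrays and the other 4 arrays than between the diets. Both replicate 1 values lay below or above all 4 others for these 4 of 10 genes, against 21.7% of all genes.

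Signals are log2 values normalized by the authors, so a difference of 1 is a doubling of signal, and levels are not compared between genes because each probe set has its own response. The median signal of the 6 arrays lay between 5.48 and 5.54. Of 10 hepatocyte markers 9 read between 10.13 and 13.81 on every array, while Ass1 read 6.28 to 7.27. Albumin (Alb) averaged 13.8 ± 0.06 in livers of the CR-CD group and 13.7 ± 0.06 in those of the CD-CD group (SD, n = 3 each). Over the 10 hepatocyte markers the signals, summed after conversion from log2, were 64550 to 70507 in CR-CD and 64820 to 70840 in CD-CD livers. Of 7 adipocyte markers, Adipoq, Lep, Plin1, Retn and Ucp1 read between 4.83 and 6.51, while Fabp4 read 7.09 to 8.45 and Car3 11.18 to 13.39. Over all genes, 329 of 22180 passed a limma test at a Benjamini-Hochberg adjusted p of 0.05 (1.48%), with 174 higher (0.784%) and 155 lower (0.699%) in CR-CD livers. Values of 428 probe sets were written with more decimals than the rest, and 315 of the 329 genes that passed held such values. The origin of this format was not tested. None of the 10 lipogenic genes held values in this format.

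Upstream sequences are shown for the 3 genes with a RefSeq window that parted the replicate 1 arrays from the others. A split of this kind, in either direction, was seen in 21.7% of all genes. Acly and Thrsp were lowest on both replicate 1 arrays and Acacb was highest there, as described with their values below. The letters are the 250 bases before the RefSeq transcript start, 5′ to 3′ on the gene's strand, in build GRCm38.p6, with CCAAT boxes (CCAAT, or ATTGG on the other strand) in capitals.
Thrsp chr7:97417551-97417800 (- strand): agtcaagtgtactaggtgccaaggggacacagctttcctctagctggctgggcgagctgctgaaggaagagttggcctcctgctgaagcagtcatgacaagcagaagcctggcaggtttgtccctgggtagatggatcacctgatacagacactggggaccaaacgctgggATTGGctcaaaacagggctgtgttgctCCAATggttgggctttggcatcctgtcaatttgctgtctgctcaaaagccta
Acacb chr5:114165268-114165517 (+ strand): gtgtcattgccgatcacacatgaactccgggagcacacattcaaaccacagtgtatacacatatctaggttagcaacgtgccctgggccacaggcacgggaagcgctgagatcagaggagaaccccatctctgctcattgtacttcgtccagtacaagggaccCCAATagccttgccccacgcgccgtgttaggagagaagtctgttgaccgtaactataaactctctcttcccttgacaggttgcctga
Acly chr11:100528001-100528250 (- strand): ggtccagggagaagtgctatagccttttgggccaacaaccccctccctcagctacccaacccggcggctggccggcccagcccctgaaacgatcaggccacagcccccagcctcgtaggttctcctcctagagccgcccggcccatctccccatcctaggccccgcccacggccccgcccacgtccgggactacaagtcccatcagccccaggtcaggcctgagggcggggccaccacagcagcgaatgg
Thrsp had a CCAAT box on each strand, Acacb had 1 and Acly had none in these windows. RefSeq windows were held for 9 of the 10 genes, 12 windows in all, with 3 for Srebf1 and 2 for Me1. Scd1 was not among them. A CCAAT box was present in 7 of the 12 windows, of Acacb, Fasn, Me1, Pnpla3, Srebf1 and Thrsp, and in 33.8% of all 32851 windows. The sterol regulatory element letters TCACNCCAC were in 0 of the 12 windows and in 1.05% of all windows, and the E-box CACGTG in 0 of 12 and in 6.02%, both strands searched. These are matches of letters in a short window and not measured binding sites.

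Srebf1 (probe set 17263535, chromosome 11) read 8.43, 7.36 and 7.58 in CR-CD livers and 7.56, 8.57 and 7.96 in CD-CD livers, in the order of replicates 1 to 3. CR-CD replicate 1 and CD-CD replicate 2 were high, and the groups overlapped. The means were 7.79 ± 0.56 in CR-CD and 8.03 ± 0.51 in CD-CD livers (SD, n = 3 each). The log2 fold change, CR-CD over CD-CD, was −0.24 with a standard error of 0.34 (limma, Benjamini-Hochberg adjusted p = 0.984). The 95% interval of the fold change was 0.487 to 1.47. Leaving out 1 array at a time moved the estimate between −0.56 and 0.03. Without both replicate 1 arrays it was −0.80 (limma adjusted p = 0.206). The array gave 1 value for the gene, and its transcript forms were not measured apart.

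**Figure D1:**
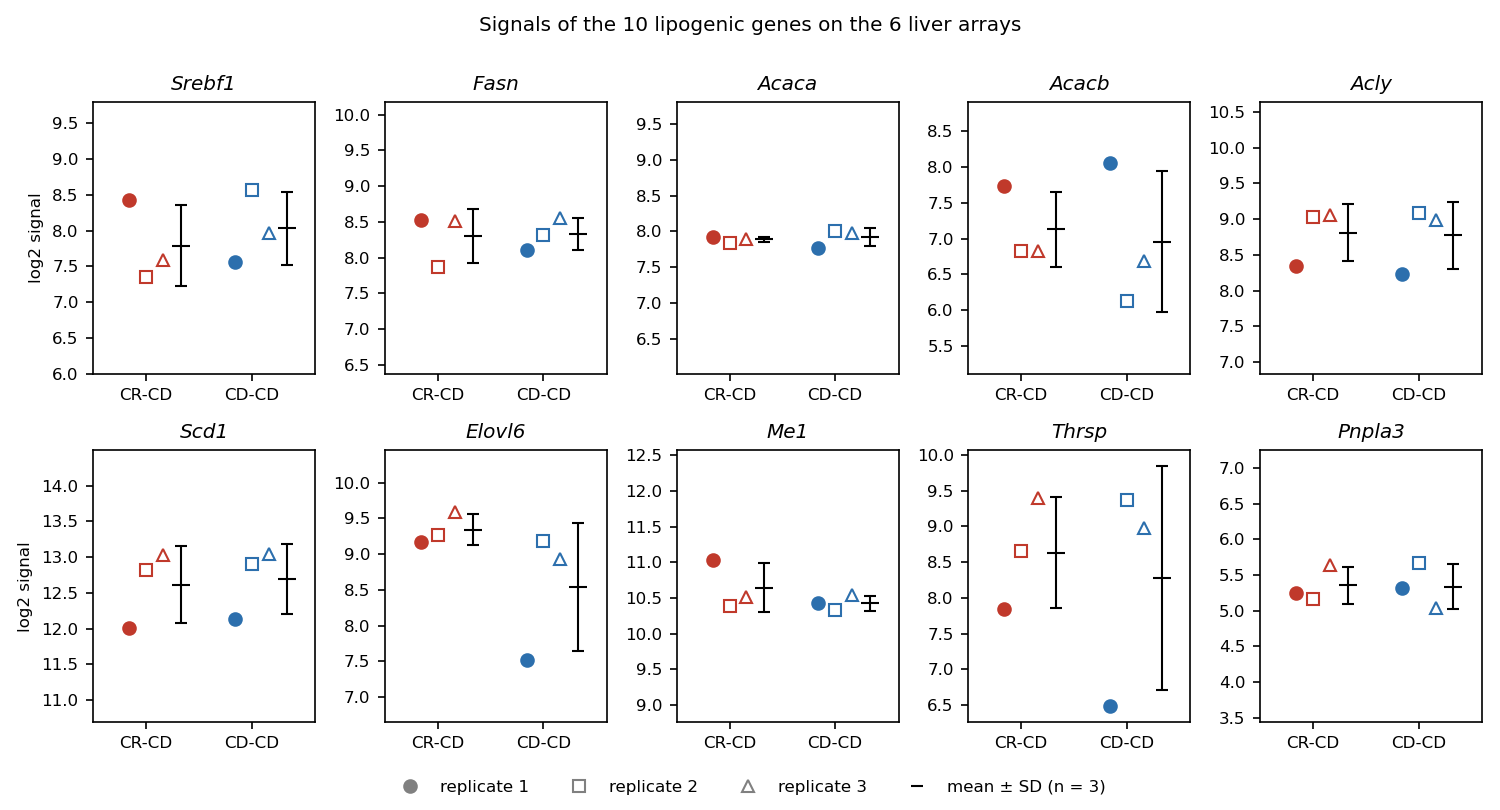
Log2 signal of each of the 10 genes on the 6 liver arrays, CR-CD on the left and CD-CD on the right of each panel, with the mean and SD (n = 3) beside the points and the same axis length in every panel. Filled circles are replicate 1, open squares replicate 2 and triangles replicate 3. The replicate 1 points of Acly, Scd1 and Thrsp lie below all others in both groups, and those of Acacb above all others.

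Acly encodes ATP citrate lyase, which makes cytosolic acetyl-CoA from citrate. It read 8.35, 9.02 and 9.05 in CR-CD livers and 8.23, 9.09 and 8.99 in CD-CD livers. Both replicate 1 arrays were low, and the other 4 arrays were close to each other. The means were 8.81 ± 0.40 in CR-CD and 8.77 ± 0.47 in CD-CD livers, with a log2 fold change of 0.04 ± 0.28 (SE, adjusted p = 0.9998).

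The carboxylases behaved differently from each other. Acaca encodes the cytosolic acetyl-CoA carboxylase that supplies malonyl-CoA for synthesis, and its signal was the steadiest of the 10, at 7.92, 7.84 and 7.90 in CR-CD livers and 7.77, 7.999 and 7.98 in CD-CD livers. All 6 values lay within 0.23. Its log2 fold change was −0.03 ± 0.08 (SE), with an interval of 0.854 to 1.12-fold. Acacb encodes the mitochondrial carboxylase, whose malonyl-CoA inhibits carnitine palmitoyltransferase and so the entry of fatty acids into mitochondria. It read 7.74, 6.82 and 6.82 in CR-CD livers and 8.05, 6.13 and 6.69 in CD-CD livers. Both replicate 1 arrays were the highest, and the groups overlapped. The log2 fold change was 0.17 ± 0.49 (SE, adjusted p = 0.999), and the interval ran from 0.502 to 2.53-fold.

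Fasn encodes fatty acid synthase, which builds palmitate. Its signals were 8.53, 7.87 and 8.51 in CR-CD livers and 8.10, 8.32 and 8.55 in CD-CD livers. The lowest was a CR-CD array and the highest a CD-CD array, with the others between them. The means were 8.30 ± 0.37 in CR-CD and 8.33 ± 0.22 in CD-CD livers, and the fold change was 0.985 with an interval of 0.711 to 1.37. Fasn, Acaca and Pnpla3 were the 3 genes whose whole interval lay inside a 1.5-fold change in either direction.

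Elovl6, the elongase that extends palmitate to stearate, read 9.17, 9.27 and 9.59 in CR-CD livers and 7.51, 9.18 and 8.94 in CD-CD livers. The CR-CD values were close together, while CD-CD replicate 1 was far below its group. The CD-CD replicate 2 value lay just above the lowest CR-CD value, so the groups overlapped. Elovl6 averaged 9.34 ± 0.22 in CR-CD and 8.54 ± 0.90 in CD-CD livers. The log2 fold change was 0.80 ± 0.41 (SE, unadjusted p = 0.0913, limma adjusted p = 0.837). Without CD-CD replicate 1 it was 0.29. Elovl6 was the only gene of the 10 with an estimate past 1.5-fold. All 3 differences between arrays of the same number were positive, at 1.65, 0.09 and 0.65. The labels do not pair the arrays, so these differences are a description only.

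Scd1, the stearoyl-CoA desaturase that introduces the first double bond, read 12.003, 12.82 and 13.03 in CR-CD livers and 12.14, 12.91 and 13.05 in CD-CD livers. Its values ran nearly parallel in the groups by replicate number, with replicate 1 lowest in each. The log2 fold change was −0.08 ± 0.32 (SE, adjusted p = 0.999).

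Me1, cytosolic malic enzyme, supplies NADPH for synthesis. It read 11.04, 10.38 and 10.51 in CR-CD livers and 10.42, 10.33 and 10.54 in CD-CD livers. Only CR-CD replicate 1 stood above the rest. The log2 fold change was 0.21 ± 0.17 (SE, adjusted p = 0.934), and the fold change of 1.16 had an interval of 0.880 to 1.53.

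Thrsp encodes Spot 14, a small nuclear-enriched protein that is induced by carbohydrate feeding and thyroid hormone and is tied to lipogenesis. It varied most, with 7.84, 8.66 and 9.40 in CR-CD livers and 6.49, 9.37 and 8.98 in CD-CD livers. The replicate 1 arrays were the lowest in both groups, and CD-CD replicate 1 lay 2.91 below the highest array. Its SD within groups exceeded that of 99.9% of all genes. The log2 fold change was 0.36 ± 0.76 (SE, adjusted p = 0.999) with an interval of 0.365 to 4.49-fold, and it ranged from −0.54 to 0.90 as single arrays were left out.

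Pnpla3, a lipid droplet protein that SREBP1 and ChREBP induce, was near the array medians at 5.25, 5.17 and 5.64 in CR-CD livers and 5.32, 5.66 and 5.04 in CD-CD livers. The groups interleaved. It was the only gene of the 10 not above every array median, and a weak signal limits what its log2 fold change of 0.02 ± 0.19 (SE) can show, which as a fold change had an interval of 0.745 to 1.37. In bulk liver RNA fewer cells of a type and less RNA per cell cannot be told apart, here or for the other genes.

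**Figure D2:**
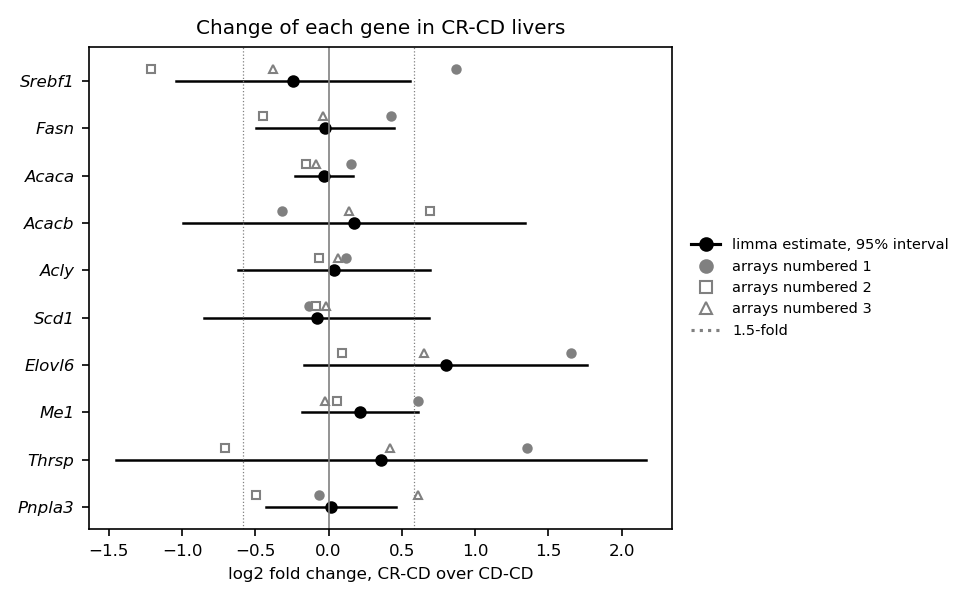
Log2 fold change of each gene, CR-CD over CD-CD, as limma estimate (black points) with its 95% interval (lines), and as the difference between arrays of the same replicate number (grey markers). Every interval crosses 0, and the dotted lines mark 1.5-fold; Elovl6 is the one estimate beyond them, at 0.80.

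Across the 10 genes, 0 passed the adjusted p of 0.05, against 1.48% of all genes, with adjusted p from 0.837 to 0.9998. At an unadjusted p of 0.05, 0 of 10 passed, against 6.38% of all genes. By the methods' t-test with a 1.5-fold change 0 of 10 passed, against 1.56%. CR-CD and CD-CD values did not overlap for 0 of 10 genes, against 11.4% of all genes. Estimates were positive for 6 genes and negative for 4, with a median log2 fold change of 0.03 beside 0.0017 for all genes. The spread was wide: the median SD within groups was 0.477 for the 10 genes and 0.120 for all genes, and 9 of the 10 exceeded the median of all genes, Acaca being the exception. With 3 arrays against 3, an exact permutation test cannot go below p = 0.1.

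The replicate 1 arrays differed from the others for part of the genes. Acly, Scd1 and Thrsp had both replicate 1 values below all 4 others, 3 of 10 genes against 10.1% of all genes, and Acacb had both above all 4 others, 1 of 10 against 11.7%. Together 4 of 10 genes did either, against 21.7% of all genes. Among 12 measured genes that fasting is known to induce in the liver, 8 had both replicate 1 values above all others, among them Pdk4, which inhibits pyruvate dehydrogenase, Acot2, a mitochondrial acyl-CoA thioesterase, and Ehhadh, of peroxisomal fatty acid oxidation. Pdk4 was at 9.09 on CR-CD replicate 1 and 11.02 on CD-CD replicate 1, against 7.01 and 6.79 on the other CR-CD arrays and 6.65 and 6.83 on the other CD-CD arrays. Cpt1a and Ppargc1a, also in that list, had both replicate 1 values below all others, and Pck1 and G6pc showed neither pattern.

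The list of other lipogenic enzymes and NADPH suppliers showed the replicate 1 pattern in part. Of 24 measured genes of this list, 9 had both replicate 1 values below all others: Acss2, Slc25a1, Me2, Elovl2, Fads1, Fads2, Scd4, Tecr and Pklr. Among them Scd4 was weak, at 4.59 to 4.89, below the array medians, and all values of Slc25a1 lay within 0.195. Another 5 had both above all others: Idh1, Mlycd, Hacd3, Acot1 and Acsl5. Of these, Mlycd, a malonyl-CoA decarboxylase, and Acot1, an acyl-CoA thioesterase, do not build fatty acids. Over all genes the shares were 10.1% for both below and 11.7% for both above. Of 15 lipid droplet and lipase genes, 9 had both above, including Cidec, a lipid droplet fusion protein, at 9.95 on CR-CD replicate 1 and 10.10 on CD-CD replicate 1, against 8.20 to 8.64 on the other arrays. Whether the mice of these arrays differed in feeding state was not tested.

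Cell type markers moved with it in part as well. Of 10 hepatocyte markers, 6 had both replicate 1 values below all others, beside 10.1% of all genes. Among them was Alb, whose values on the 6 arrays lay between 13.66 and 13.81. Of 7 adipocyte markers, Car3 had both below and Fabp4 both above, and Fabp4 was at 8.33 on CR-CD replicate 1 and 8.45 on CD-CD replicate 1, against 7.09 to 7.58 on the other arrays. The 7 adipocyte markers, summed after conversion from log2, were 7289 to 10871 in CR-CD and 2918 to 11152 in CD-CD livers. Car3 made up most of each sum, so the sums track Car3 and are not a measure of adipocyte content. The part of these markers in the pattern was not tested.

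**Figure D3:**
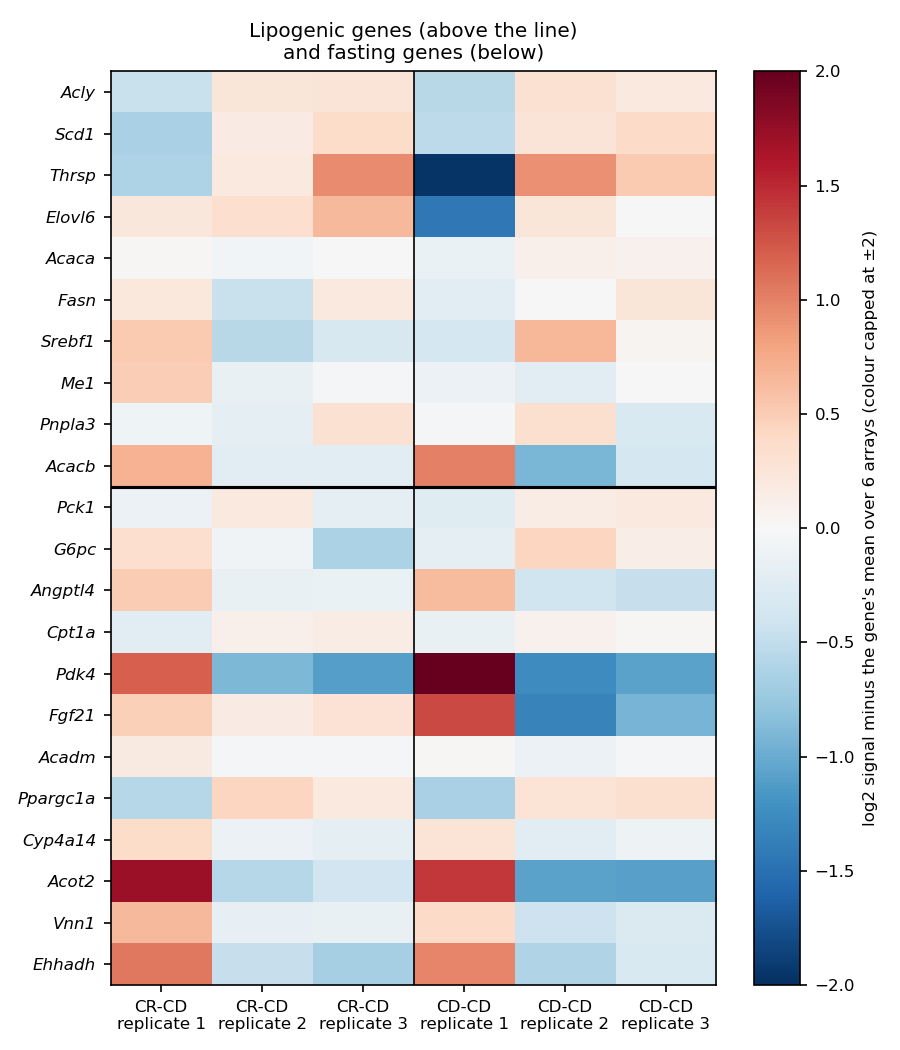
Log2 signal minus the gene's mean over the 6 arrays, for the 10 lipogenic genes above the thick line and 12 fasting genes below it, with the CR-CD arrays left of the CD-CD arrays; the colour is capped at 2. The replicate 1 columns are blue for Acly, Scd1 and Thrsp and red for Acacb, Pdk4, Acot2 and Ehhadh in both groups.

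Because these genes set the 2 replicate 1 arrays apart from the other 4, correlations among Acly, Scd1, Thrsp and Acacb cannot be given within clusters of at least 6 arrays, and no pooled coefficient is given for them. Over all 45 pairs of the 10 genes, 0 passed after Benjamini-Hochberg adjustment of exact permutation p. The lowest adjusted p was 0.146 for Pearson's r and 0.514 for Spearman's rho, and 6 pairs had an unadjusted Pearson p under 0.05. The lowest Pearson p belonged to pairs among Acly, Thrsp and Acacb, which set the replicate 1 arrays apart. Of the 6 pairs, only Elovl6 with Thrsp was not wholly within Acly, Scd1, Thrsp and Acacb. Srebf1 was closest to Acaca, with r = 0.74 (exact permutation p = 0.0986, adjusted p = 0.415) and rho = 0.89 (p = 0.0333, adjusted p = 0.514) over 6 arrays. Without the 2 arrays farthest from the Srebf1 median r was 0.75. With Fasn the coefficients were r = 0.55 and rho = 0.60.

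Among genes outside the set, those with the profile most like Srebf1 over the 6 arrays were Zfp992, Parp16, Mrps5, Klk1b8 and 1700030A11Rik, with r from 0.978 to 0.994. At r of at least 0.9 stood 127 genes, 0.573% of 22170. Those most like the mean of the 10 genes, centred per gene, were Spaca5, Dtnbp1, Acot13, Cenpx and Abcd2, with r from 0.982 to 0.998, and 213 genes (0.961%) reached 0.9. The genes were not scaled, so those with the widest spread weighed most in that mean. Its r was 0.925 with Thrsp and 0.913 with Elovl6, but 0.433 with Srebf1, 0.123 with Me1 and −0.747 with Acacb. With 6 points these are descriptions, and Klk1b8, 1700030A11Rik and Spaca5 were among probe sets of low signal.

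The regulators of SREBP1 and ChREBP had 18 of 19 genes measured. Rxra was the only gene called. Rxra, the partner of LXR and other nuclear receptors, was lower in CR-CD livers, at 7.90, 8.29 and 9.02 against 9.99, 9.94 and 10.08 in CD-CD livers. The groups did not overlap, and the log2 fold change was −1.60 ± 0.26 (SE, adjusted p = 0.031). Rxra held values in the longer decimal format. The call was lost by the methods' t-test (adjusted p = 0.387) and without CR-CD replicate 2 (limma adjusted p = 0.179). It was also lost without each CD-CD array in turn (0.0679 to 0.183) and without both replicate 1 arrays (0.051). In those fits the log2 fold change was −1.36 without both replicate 1 arrays and −1.54 to −1.63 in the others. Mbtps2, the site 2 protease that frees SREBP1, had 6.64 ± 0.02 in CR-CD and 6.45 ± 0.10 in CD-CD livers (log2 fold change 0.20, adjusted p = 0.729). Of the 18 regulators 1 was called, beside 1.48% of all genes, 5 had an unadjusted p under 0.05, beside 6.38%, and 7 did not overlap between groups, beside 11.4%. Mlxipl, which encodes ChREBP, read 9.55, 9.21 and 9.20 in CR-CD livers and 9.48, 9.60 and 9.73 in CD-CD livers (log2 fold change −0.28, adjusted p = 0.777). The median log2 fold change of the list was −0.10. Mlxipl was picked for naming after its values were seen.

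The list of other lipogenic enzymes and NADPH suppliers had 24 of 29 genes measured and 0 called, beside 1.48% of all genes. An unadjusted p under 0.05 was reached by 2 of them, beside 6.38%, and the median log2 fold change was 0.13. Pgd, of the pentose phosphate pathway, averaged 8.03 ± 0.10 in CR-CD and 7.74 ± 0.08 in CD-CD livers (0.29 ± 0.08 SE, adjusted p = 0.408), and its groups did not overlap. Mid1ip1, which promotes polymerization of acetyl-CoA carboxylase, averaged 6.69 ± 0.28 in CR-CD and 6.90 ± 0.31 in CD-CD livers (−0.20, adjusted p = 0.948). Its dimmer probe sets gave estimates of 0.10 and 0.01. Triglyceride synthesis had 12 genes measured and 1 called, beside 1.48% of all genes. Lpin3, a phosphatidate phosphatase, read 7.29, 7.28 and 7.24 in CR-CD livers and 5.57, 5.57 and 5.59 in CD-CD livers (1.70 ± 0.06 SE, limma adjusted p = 2.4e-05). It held values in the longer decimal format. Lpin2 averaged 10.4 ± 0.39 in CR-CD and 10.6 ± 0.27 in CD-CD livers (−0.22, adjusted p = 0.954), while a dimmer second probe set of it gave −0.80 (adjusted p = 0.119 over all probe sets).

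Lipid droplet proteins and lipases had 15 of 16 genes measured and 1 called, beside 1.48% of all genes. Plin4, a perilipin, was lower in CR-CD livers, at 7.67, 7.70 and 7.65 against 8.49, 8.41 and 8.23 in CD-CD livers (−0.70 ± 0.08 SE, adjusted p = 0.0052), with values in the longer format, and by the methods' t-test the adjusted p was 0.0612. Abhd5, the activator of the lipase Pnpla2, averaged 7.73 ± 0.15 in CR-CD and 7.53 ± 0.04 in CD-CD livers (0.20, adjusted p = 0.812). Of 14 measured SREBP2 targets of cholesterol synthesis 0 were called, beside 1.48% of all genes. An unadjusted p under 0.05 was reached by 0 of 14, beside 6.38%. Estimates were positive for 13 of 14, beside 11244 of all 22180 genes, with a median of 0.11. Mvd, a decarboxylase of the mevalonate pathway, averaged 6.77 ± 0.13 in CR-CD and 6.53 ± 0.14 in CD-CD livers (0.23, adjusted p = 0.790). Dhcr7, of the last steps to cholesterol, averaged 6.97 ± 0.17 in CR-CD and 7.11 ± 0.24 in CD-CD livers (−0.13, adjusted p = 0.961).

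Of 12 measured fasting genes 0 were called, beside 1.48% of all genes, with a median of 0.03. An unadjusted p under 0.05 was reached by 0 of 12, beside 6.38%. Fgf21, a hepatic hormone of fasting, read 8.14, 7.81 and 7.95 in CR-CD livers and 8.98, 6.31 and 6.73 in CD-CD livers (0.63 ± 0.63 SE, adjusted p = 0.957). Its log2 fold change was 0.11 without CD-CD replicate 2 and 0.32 without CD-CD replicate 3. It was 1.44 without CD-CD replicate 1, where alone among the single arrays left out Fgf21 passed (adjusted p = 0.0037). Fgf21 also passed without both replicate 1 arrays, at 1.36 (limma adjusted p = 0.0073), a fit added after seeing the data. G6pc, of glucose release, averaged 10.8 ± 0.49 in CR-CD and 11.1 ± 0.31 in CD-CD livers (−0.25, adjusted p = 0.959).

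**Figure D4:**
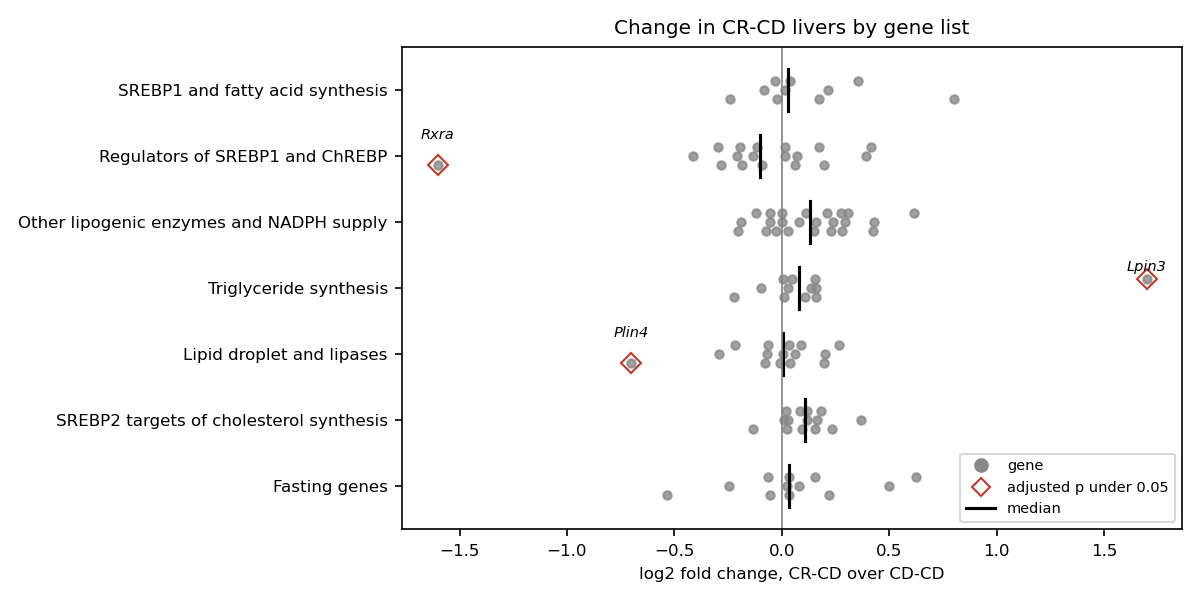
Log2 fold change, CR-CD over CD-CD, of each measured gene in 7 lists, with the median of each list as a black bar; red diamonds mark genes past an adjusted p of 0.05. Rxra at −1.60, Lpin3 at 1.70 and Plin4 at −0.70 are the 3 called genes, none of them among the 10 of the top row, and all 3 held values in the longer decimal format.

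Markers of other liver cells stood beside these values as follows. All 8 macrophage markers had positive estimates with a median log2 fold change of 0.62, 4 of 8 did not overlap between groups (11.4% of all genes), 4 had an unadjusted p under 0.05 (6.38%) and 0 were called (1.48%). Clec4f, of Kupffer cells, averaged 9.32 ± 0.27 in CR-CD and 8.77 ± 0.15 in CD-CD livers (0.55 ± 0.15 SE, adjusted p = 0.357). Their signals, summed after conversion from log2, were 2213 to 3429 in CR-CD and 1319 to 2066 in CD-CD livers. Their part in the values of the 10 genes was not tested. Summed likewise, the endothelial markers were 2373 to 2836 in CR-CD and 2062 to 3122 in CD-CD livers. None of the measured endothelial (8), stellate (8), cholangiocyte (6), adipocyte (7) or erythroid (1) markers was called. By the same rule of smallest p in each direction the named ones were Cdh5 (0.24) and Lyve1 (−0.22), Col1a2 (0.20) and Lrat (−0.13), Epcam (0.12) and Krt7 (−0.13), Lep (0.17) and Retn (−0.11), Slc4a1 (0.05), and among hepatocyte markers Alb (0.04) and Hnf4a (−0.23), as log2 fold changes with adjusted p from 0.857 to 0.999.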

How the data were processed

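The deposited table gives log2 signals of 6 arrays, 3 per group, after normalization by the authors with the GeneSpring software, and the summarization of probes and genome build are not given in the sources used here. The table held 33793 probe sets, of which 23521 had 1 symbol, 1820 several and 8452 none. The brightest probe set of each symbol gave 22180 genes. Groups came from the sample labels.

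CR-CD was compared with CD-CD in R 4.3.3 with the moderated linear model of limma 3.58.1, with no variance trend. There were 4 degrees of freedom between arrays and 2.98 from the prior. Adjusted p followed Benjamini and Hochberg over all genes, with a threshold of 0.05. The model was tested on simulated data. Correlations used exact permutation p over pairings of the 6 arrays. A value was in the longer decimal format where it was not the shortest decimal of a single-precision number.

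The members, gene lists and tests were chosen with earlier results of these data known. All 10 members are named. In each other list the text names every gene past the adjusted p and the gene with the smallest p in each direction. Mlxipl and the examples of the replicate 1 pattern were chosen after their values were seen. The list genes reported are those measured; the others were not analysed here.

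Deviations of arrays of the same number from their groups correlated over the genes at 0.407, 0.208 and 0.201 for numbers 1 to 3, each above 0.1. Deviations within a group of 3 arrays cancel out, so the values for numbers 2 and 3 follow in part from that for number 1. A model blocked on replicate number was therefore run too. The pairing comes from the data and the labels give no reason for it. CR-CD replicate 3 with CD-CD replicate 2 correlated at 0.261. Alternatives were the methods' t-test, a variance trend, quantile normalization, centring, a signal filter, the mean of probe sets, all probe sets, the block, no longer-format probe sets and leaving out each array. Leaving out both replicate 1 arrays was added after seeing the data. The number of arrays limits the precision.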

Additional observations from a re-analysis of the deposited data

How the results depend on the processing

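None of the 10 genes passed under any alternative run, and the lowest adjusted p they reached was 0.206, for Srebf1 without both replicate 1 arrays. In that fit the log2 fold change of Srebf1 was −0.80, against −0.24 with all arrays. Pnpla3 has no value under the filter at the 40th percentile, and Rxra, Lpin3 and Plin4 have none without longer-format probe sets. Leaving out those probe sets left 0 of 21878 genes past the adjusted p in limma, against 329 in the whole table, with 1091 at an unadjusted p under 0.05 and 0 by the methods' t-test after Benjamini-Hochberg adjustment. With replicate number as a block, 339 genes and 0 of the 10 passed, and the pairing changed no call among the 10. Without both replicate 1 arrays, log2 fold changes turned negative for Acly (−0.0036) and Thrsp (−0.14) and positive for Lyve1 (0.19). In the same fit Fgf21 passed, at 1.36 (limma adjusted p = 0.0073). Quantile normalization gave Alb −0.016.

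Leaving out 1 array at a time gave 0 to 0 of the 10 genes past the threshold, a median log2 fold change from −0.12 to 0.15, 290 to 355 genes in all, and a median correlation of the pairs from 0.092 to 0.348, against 0.209. Log2 fold changes ran from −0.56 to 0.027 for Srebf1, −0.13 to 0.19 for Fasn, −0.10 to 0.011 for Acaca, −0.24 to 0.72 for Acacb, −0.23 to 0.27 for Acly, −0.36 to 0.23 for Scd1, 0.29 to 1.12 for Elovl6, 0.02 to 0.34 for Me1, −0.54 to 0.90 for Thrsp, −0.14 to 0.18 for Pnpla3, −0.48 to 0.0086 for G6pc, 0.11 to 1.44 for Fgf21, −0.38 to −0.05 for Mid1ip1, −0.30 to 0.068 for Lrat, −0.59 to 0.12 for Lyve1 and −0.056 to 0.13 for Slc4a1. The cause of these changes was not tested.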
